A study of Mus musculus with 9 samples.

Results

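The members described here are 44 genes of the extracellular matrix-degrading machinery, out of 22180 genes that the arrays name by a single symbol. They were taken by symbol: every Mmp with a number (22 matrix metalloproteinases), every Adamts with a number (18 secreted proteases with thrombospondin repeats) and Timp1 to Timp4 (4 tissue inhibitors of metalloproteinases). The rule itself uses symbols only, but it was set with earlier results of these data known. Each gene was read from 1 transcript cluster, the array's unit of probes along a gene's exons, and where a gene had several, from the one with the highest mean over the 9 arrays. Mmp15 and Adamts2 were not analysed here.

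The RNA came from lung organoids, which are spheres grown in Matrigel from the cells of digested lungs of adult male BALB/c mice. CSD14 organoids came from mice chronically exposed to cigarette smoke in a whole-body chamber and were harvested at culture day 14, CSD5 organoids came from mice with the same exposure and were harvested at culture day 5, and ND14 organoids came from naïve mice in clean air and were harvested at culture day 14. Each group had 3 arrays. Day 5 lies before the switch from proliferation medium to a differentiation medium with less serum, given with or without ROCK and TGF-β inhibitors. CSD14 and ND14 therefore differed in smoke exposure at the same day, CSD14 and CSD5 differed in day and medium, and CSD5 and ND14 differed in exposure, day and medium. The 3 comparisons share arrays with one another. Replicates are labelled as biological, but nothing states that separate animals or separate cultures were used. A p-value here therefore reflects only how much these arrays varied, which may be technical. The cells were not sorted for a lung cell type, so the organoids can hold macrophages, fibroblasts and other cells beside epithelium, and in such bulk RNA fewer cells of a type and less RNA per cell cannot be told apart.

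Matrix metalloproteinases are zinc enzymes that are made as latent proforms and, once their propeptide is removed, cut collagens, elastin, basement membrane and many cell surface proteins. ADAMTS enzymes trim proteoglycans and procollagens. TIMPs bind the catalytic site of matrix metalloproteinases and block it, and not all of them do so for ADAMTS enzymes. In the lung the balance between these proteases and their inhibitors is best known from emphysema, where the elastin of the alveolar walls is lost, and mice without Mmp12 have long been used in that field.

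One array stood apart from its label before any member was considered. CSD5 replicate 1 correlated better with the ND14 arrays (mean r = 0.991 over all transcript clusters) than with the other CSD5 arrays (0.973), whereas CSD5 replicates 2 and 3 had mean correlations of 0.983 and 0.98 within their group and of 0.97 and 0.964 with ND14. Fold changes named for CSD5, and the counts of members that passed a test there, are therefore given with and without that array. The markers of the labelled tissue were present but uneven. The mean log2 signal of 6 general epithelial markers was 9.10 on the CSD14 arrays, 8.79 to 8.97 on the CSD5 arrays and 8.72 to 8.79 on the ND14 arrays. Surfactant protein C, the defining product of alveolar type 2 cells, had log2 signals of 4.55, 4.25 and 3.95 in CSD14, of 9.49, 11.29 and 11.49 in CSD5 and of 5.74, 5.79 and 5.79 in ND14. The gene was thus lower in both day 14 groups than on any CSD5 array. Not every alveolar type 2 marker followed it. Sftpb had log2 signals of 7.08, 7.09 and 6.96 in CSD14, 5.62, 6.96 and 7.09 in CSD5 and 4.78, 5.25 and 4.95 in ND14.

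Between CSD14 and ND14, 4 of the 44 genes passed a Benjamini-Hochberg adjusted p under 0.05 in limma, which is 9.09% of them against 9.15% of all transcript clusters. Timp3, Mmp14 and Mmp23 were higher in CSD14 and Adamts1 was lower. By a looser rule, which asks for a fold change over 2 and a p under 0.05 before adjustment, the same 4 genes passed, again 9.09% of the members, against 4.75% of all clusters. Over all clusters 5.48% rose and 3.66% fell by the adjusted p. Leaving out CSD5 replicate 1, which is in neither group but enters the shared estimate of the spread, gave 6 members (11.9% of all clusters), with Timp1 higher and Mmp12 lower as the additions, and 4 by the looser rule (4.76%). In 12 genes the arrays of the groups did not overlap, which was so in 24.3% of all clusters. By the adjusted p the share of members that differed was thus close to that of the arrays as a whole, while by the looser rule it was the higher of the 2 shares, and the median log2 fold change of the members was -0.01 against 0 over all clusters. Between CSD5 and ND14, 0 members passed the adjusted p, as did 1 of 34472 clusters (0.0029%), and 4 members passed the looser rule, all higher in CSD5, against 1.98% of all clusters in either direction and 0.766% higher. Arrays did not overlap in 8 members, 7 of them higher in CSD5, against 13.3% of clusters in either direction and 4.31% higher. With CSD5 replicate 1 left out, the adjusted p was passed by 8 members, all higher in CSD5, against 9.67% of clusters in either direction and 3.4% higher, and the looser rule by 5, all higher, against 3.92% and 1.5%. Between CSD14 and CSD5, 2 members passed the adjusted p (2.41% of all clusters), 2 passed the looser rule (1.79%) and 10 did not overlap (18.2%). By the adjusted p these were Mmp12, lower in CSD14, and Mmp23, higher. By the looser rule they were Mmp9 and Mmp12, both lower. Of the 10, 6 were higher and 4 lower in CSD14. With CSD5 replicate 1 left out, the calls between CSD14 and CSD5 became 5 by the adjusted p (4.11%), 4 of them lower in CSD14 (1.24%), and 4 by the looser rule (1.64%), all lower (0.789%). The plot of all members by array shows which genes these are.

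**Figure D1:**
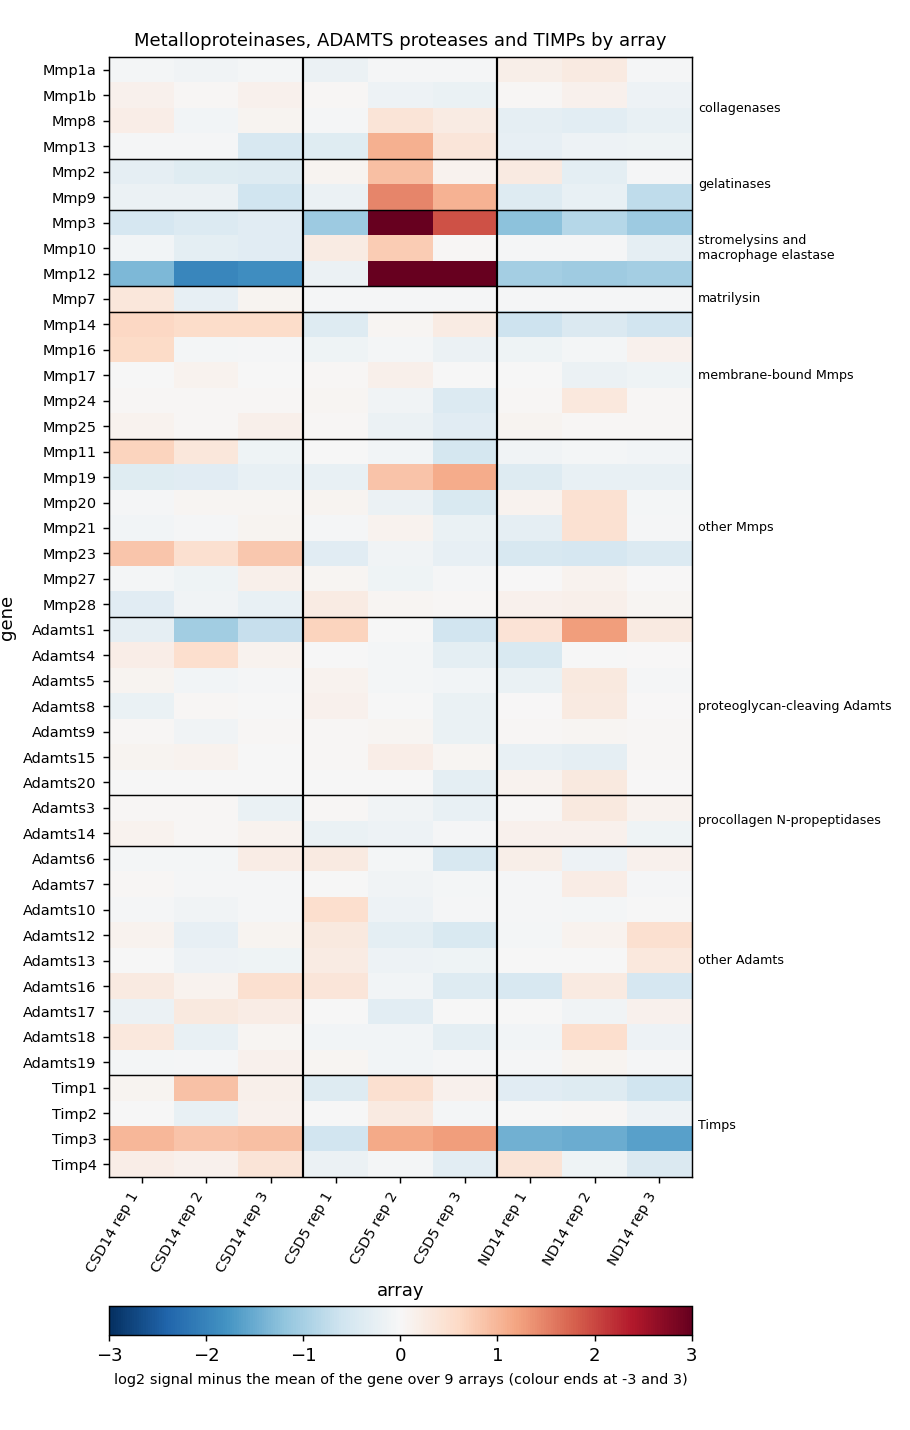
Log2 signal of each of the 44 genes (rows, by class) on each of the 9 arrays (columns), as the difference from that gene's mean over the arrays. Timp3, Mmp14 and Mmp23 were above their mean on all CSD14 arrays, Mmp12, Mmp3, Mmp9 and Mmp19 were above it on CSD5 replicates 2 and 3 and below it on CSD5 replicate 1, and most Adamts genes varied little.

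Among the inhibitors, Timp3 gave the largest difference of any member between CSD14 and ND14. TIMP3 is the inhibitor that stays bound to the matrix, and beside metalloproteinases it blocks ADAM and ADAMTS enzymes. Its log2 signal was 7.36, 7.20 and 7.25 in CSD14, 5.77, 7.49 and 7.60 in CSD5 and 4.92, 4.87 and 4.72 in ND14. All CSD14 and all CSD5 arrays lay above all ND14 arrays, and CSD5 replicate 1 lay between the other CSD5 arrays and ND14. Timp3 rose by 2.43 ± 0.39 in CSD14 against ND14 (log2 fold change ± SE, limma adjusted p = 0.00483), a 5.40-fold difference. In CSD5 against ND14 the log2 fold change was 2.12 ± 0.39 (limma adjusted p = 0.153), and without CSD5 replicate 1 it was 2.71 ± 0.12 (limma adjusted p = 1.84e-06). CSD14 and CSD5 did not differ by the test (0.32 ± 0.39, limma adjusted p = 0.744), and without CSD5 replicate 1 the sign turned (-0.28 ± 0.12, limma adjusted p = 0.23).

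The other TIMPs did not pass in any comparison over the 9 arrays. Timp1, the inducible soluble inhibitor, had log2 signals of 3.16, 3.94 and 3.23 in CSD14, 2.68, 3.54 and 3.19 in CSD5 and 2.72, 2.67 and 2.47 in ND14. Every CSD14 array was above every ND14 array, while the CSD5 arrays overlapped both. The log2 fold change between CSD14 and ND14 was 0.82 ± 0.25 with a limma adjusted p of 0.0758, and it was 0.0295 when CSD5 replicate 1 was left out of the shared estimate of the spread, 0.0493 in a fit of only the 6 arrays compared and 0.0395 with the replicate number as a block. Timp2, which also helps MMP14 to activate pro-MMP2, had log2 signals of 5.97, 5.77 and 6.12 in CSD14, 5.99, 6.26 and 5.94 in CSD5 and 5.99, 6.03 and 5.85 in ND14. The Timp2 groups overlapped throughout, and its log2 fold changes lay within 0.11 of 0, or without CSD5 replicate 1 were -0.15 in CSD14 against CSD5 and 0.14 in CSD5 against ND14. Timp4 had log2 signals of 2.87, 2.81 and 3.07 in CSD14, 2.50, 2.62 and 2.36 in CSD5 and 3.07, 2.55 and 2.24 in ND14, and its log2 fold change between CSD14 and ND14 was 0.30 (limma adjusted p = 0.495). The CSD14 arrays of Timp4 were above all CSD5 arrays and overlapped those of ND14.

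Of the proteases, Mmp14 and Mmp23 rose in CSD14. MMP14, also called MT1-MMP, is anchored in the plasma membrane, cuts fibrillar collagen around the cell and activates pro-MMP2. Mmp14 had log2 signals of 8.19, 8.13 and 8.12 in CSD14, 7.19, 7.64 and 7.82 in CSD5 and 6.96, 7.15 and 7.0 in ND14. The groups followed each other without overlap, with CSD14 the highest and ND14 the lowest, and CSD5 replicate 1 was the lowest CSD5 array. Mmp14 rose by 1.11 ± 0.16 in CSD14 against ND14 (limma adjusted p = 0.00256), a 2.16-fold difference. Against CSD5 the CSD14 organoids were higher by 0.60 ± 0.16 (limma adjusted p = 0.0854), and CSD5 was higher than ND14 by 0.51 ± 0.16 (limma adjusted p = 0.229). With that array left out these were 0.42 ± 0.12 (limma adjusted p = 0.0856) and 0.69 ± 0.12 (limma adjusted p = 0.00512).

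Mmp23 encodes a small membrane-tethered metalloproteinase that lacks the hemopexin domain of its relatives. Its log2 signals were 5.39, 5.05 and 5.38 in CSD14, 4.22, 4.45 and 4.31 in CSD5 and 4.09, 4.06 and 4.15 in ND14. The CSD14 arrays stood clear of both other groups. Mmp23 rose by 1.17 ± 0.12 in CSD14 against ND14 (limma adjusted p = 0.000842) and by 0.95 ± 0.12 in CSD14 against CSD5 (limma adjusted p = 0.00617). The call against CSD5 was kept without CSD5 replicate 1 (0.89 ± 0.14, limma adjusted p = 0.00817) and lost in a fit of only the 6 arrays compared (limma adjusted p = 0.0513). CSD5 was above ND14 by 0.23 ± 0.12 (limma adjusted p = 0.441), with no overlap between the arrays, and by 0.28 ± 0.14 without CSD5 replicate 1 (limma adjusted p = 0.243).

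The other 4 membrane-bound metalloproteinases measured, Mmp16, Mmp17, Mmp24 and Mmp25, did not pass in any comparison. The 2 gelatinases also gave no call between CSD14 and ND14. Mmp2, the gelatinase that MMP14 activates, had log2 signals of 4.13, 4.04 and 4.03 in CSD14, 4.48, 5.32 and 4.52 in CSD5 and 4.67, 4.11 and 4.38 in ND14. Its CSD14 arrays were below every CSD5 array, by a log2 fold change of -0.71 ± 0.22 (limma adjusted p = 0.152), or -0.85 ± 0.23 without CSD5 replicate 1 (limma adjusted p = 0.0791), and overlapped ND14.

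Adamts1 was the member that was lower in CSD14. ADAMTS1 cleaves the proteoglycans aggrecan and versican. Its log2 signals were 3.99, 3.23 and 3.56 in CSD14, 4.92, 4.24 and 3.69 in CSD5 and 4.68, 5.51 and 4.54 in ND14. Every CSD14 array was below every ND14 array, with CSD5 spread across both. The fall of Adamts1 between CSD14 and ND14 had a log2 fold change of -1.32 ± 0.34 (limma adjusted p = 0.042). That call was fragile, since leaving out 1 array moved the adjusted p between 0.0139 and 0.148. The other Adamts comparisons gave log2 fold changes of -0.63 in CSD5 against ND14 (limma adjusted p = 0.444) and -0.69 in CSD14 against CSD5 (limma adjusted p = 0.368), and of -0.95 (limma adjusted p = 0.104) and -0.37 (limma adjusted p = 0.534) without CSD5 replicate 1. The other 17 Adamts genes did not pass in any comparison. Of these Adamts4, an aggrecanase, had log2 signals of 3.29, 3.59 and 3.20 in CSD14, 3.07, 3.04 and 2.79 in CSD5 and 2.64, 3.08 and 3.10 in ND14, with the CSD14 arrays above all others and a log2 fold change of 0.42 ± 0.16 against ND14 (limma adjusted p = 0.175). The 2 procollagen N-propeptidases measured, Adamts3 and Adamts14, had log2 fold changes of -0.18 and 0.04 between CSD14 and ND14.

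**Figure D2:**
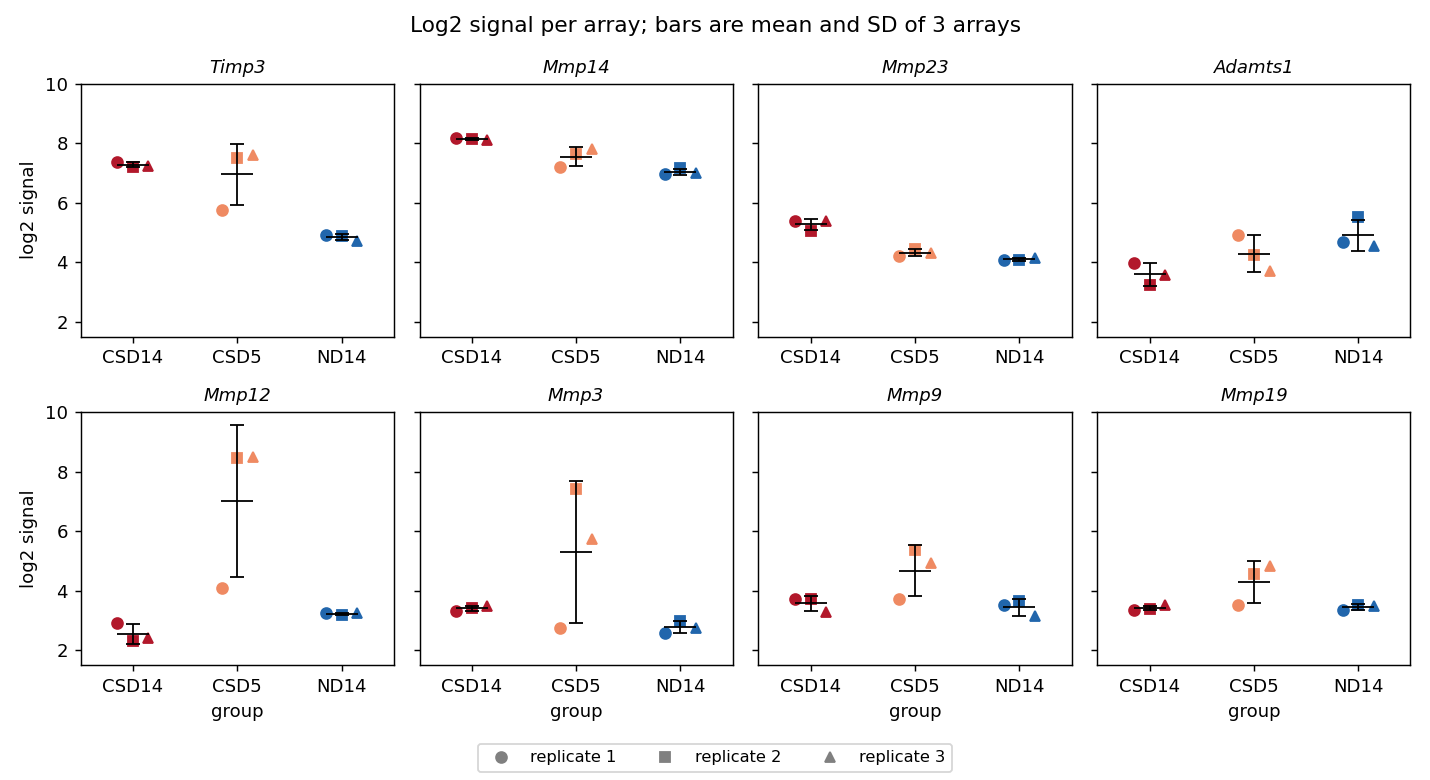
Log2 signal of 8 members on each array (points) with the mean and SD of the 3 arrays of a group (bars), for CSD14, CSD5 and ND14 from left to right. Timp3, Mmp14 and Mmp23 were higher in CSD14 than in ND14 and Adamts1 was lower, while Mmp12, Mmp3, Mmp9 and Mmp19 were higher on CSD5 replicates 2 and 3 than on any other array.

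Among the metalloproteinases, the largest log2 fold change in CSD5 against ND14 was that of Mmp12, a secreted enzyme. MMP12, the macrophage elastase, degrades elastin. Its log2 signals were 2.93, 2.32 and 2.41 in CSD14, 4.08, 8.47 and 8.51 in CSD5 and 3.24, 3.20 and 3.24 in ND14. CSD5 replicates 2 and 3 were far above every other array, CSD5 replicate 1 was also above all day 14 arrays, and CSD14 lay below ND14 without overlap. Mmp12 fell in CSD14 against CSD5, with a log2 fold change of -4.47 ± 0.96 (limma adjusted p = 0.0439), and the call was lost when any array other than CSD5 replicate 1 was left out (limma adjusted p up to 0.143) and in a fit of only the 6 arrays compared (limma adjusted p = 0.167). On leaving out CSD5 replicate 1, the log2 fold change was -5.94 ± 0.17 (limma adjusted p = 9.71e-07). In CSD5 against ND14 it was 3.79 ± 0.96 (limma adjusted p = 0.2), and 5.26 ± 0.17 without CSD5 replicate 1 (limma adjusted p = 4.83e-07). Between CSD14 and ND14 the log2 fold change was -0.67 ± 0.96 (limma adjusted p = 0.808), and the same difference had an SE of 0.16 and a limma adjusted p of 0.0198 without CSD5 replicate 1, and passed in a fit of the 6 arrays alone (limma adjusted p = 0.0409).

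Mmp3 and Mmp9 shared with Mmp12 that CSD5 replicates 2 and 3 were the highest of the 9 arrays. MMP3, or stromelysin-1, cuts proteoglycans, laminin and fibronectin and activates other pro-MMPs. Mmp3 had log2 signals of 3.33, 3.42 and 3.49 in CSD14, 2.75, 7.43 and 5.73 in CSD5 and 2.59, 2.98 and 2.75 in ND14. CSD5 replicates 2 and 3 were the highest, CSD5 replicate 1 was among the ND14 values, and CSD14 lay above ND14 without overlap. In CSD5 against ND14 the log2 fold change was 2.53 ± 0.89 (limma adjusted p = 0.268), and 3.81 ± 0.39 without CSD5 replicate 1 (limma adjusted p = 0.000261). In CSD14 against CSD5 it was -1.89 ± 0.89 (limma adjusted p = 0.337), and -3.17 ± 0.39 without that array (limma adjusted p = 0.00277). Between CSD14 and ND14 it was 0.64 ± 0.89 (limma adjusted p = 0.803) with all arrays and 0.64 ± 0.35 without CSD5 replicate 1 (limma adjusted p = 0.353), but it passed in a fit of only the 6 arrays compared (limma adjusted p = 0.0152).

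MMP9, or gelatinase B, degrades denatured collagen and type IV collagen and is stored by neutrophils and made by macrophages and epithelium. Mmp9 had log2 signals of 3.73, 3.73 and 3.30 in CSD14, 3.73, 5.36 and 4.95 in CSD5 and 3.52, 3.67 and 3.14 in ND14. CSD5 replicates 2 and 3 were again the highest, and CSD5 replicate 1 equalled the highest CSD14 value. The log2 fold change was 1.24 ± 0.35 in CSD5 against ND14 (limma adjusted p = 0.221) and -1.09 ± 0.35 in CSD14 against CSD5 (limma adjusted p = 0.162). Both passed without CSD5 replicate 1, at 1.71 ± 0.21 (limma adjusted p = 0.000741) and -1.57 ± 0.21 (limma adjusted p = 0.00407). CSD14 and ND14 overlapped, with a log2 fold change of 0.14 ± 0.35 (limma adjusted p = 0.899), and of 0.14 ± 0.18 without CSD5 replicate 1 (limma adjusted p = 0.755).

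Smaller differences of CSD5 from 1 or both of the day 14 groups were seen in 4 more secreted enzymes. Mmp19, which encodes a basement membrane-degrading enzyme, had log2 signals of 3.37, 3.38 and 3.51 in CSD14, 3.51, 4.58 and 4.84 in CSD5 and 3.35, 3.51 and 3.50 in ND14. Its log2 fold change without CSD5 replicate 1 was 1.26 ± 0.13 in CSD5 against ND14 (limma adjusted p = 0.000235) and -1.29 ± 0.13 in CSD14 against CSD5 (limma adjusted p = 0.000769), and with all arrays these were 0.86 ± 0.28 (limma adjusted p = 0.243) and -0.89 ± 0.28 (limma adjusted p = 0.15). The signal of Mmp19 was thus raised on the same 2 CSD5 arrays as that of Mmp12. Mmp13, collagenase 3, had log2 signals of 3.04, 3.02 and 2.59 in CSD14, 2.70, 4.14 and 3.43 in CSD5 and 2.83, 2.91 and 2.94 in ND14. Its log2 fold change in CSD5 against ND14 was 0.53 ± 0.30 (limma adjusted p = 0.454) and 0.89 ± 0.21 without CSD5 replicate 1 (limma adjusted p = 0.0298). Mmp8, the neutrophil collagenase, had log2 signals of 2.95, 2.67 and 2.82 in CSD14, 2.71, 3.14 and 2.99 in CSD5 and 2.47, 2.43 and 2.53 in ND14. All CSD14 and CSD5 arrays of Mmp8 were above all ND14 arrays, by 0.34 ± 0.13 in CSD14 (limma adjusted p = 0.186) and 0.47 ± 0.13 in CSD5 (limma adjusted p = 0.221). These signals lay near or below the array medians, which ran from 2.79 to 3.04. The difference of Mmp8 between CSD5 and ND14 was 0.59 ± 0.12 without CSD5 replicate 1 (limma adjusted p = 0.016). CSD14 and CSD5 overlapped in Mmp8, with a log2 fold change of -0.13 ± 0.13 (limma adjusted p = 0.672). Without CSD5 replicate 1 it was -0.25 ± 0.12 (limma adjusted p = 0.286). Mmp10, stromelysin-2, had log2 signals of 2.58, 2.37 and 2.32 in CSD14, 2.89, 3.41 and 2.70 in CSD5 and 2.62, 2.63 and 2.38 in ND14. Every CSD5 array of Mmp10 was above every other array, but no comparison passed, and the log2 fold change was -0.58 ± 0.18 in CSD14 against CSD5 (limma adjusted p = 0.143), or -0.63 ± 0.20 without CSD5 replicate 1 (limma adjusted p = 0.12).

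**Figure D3:**
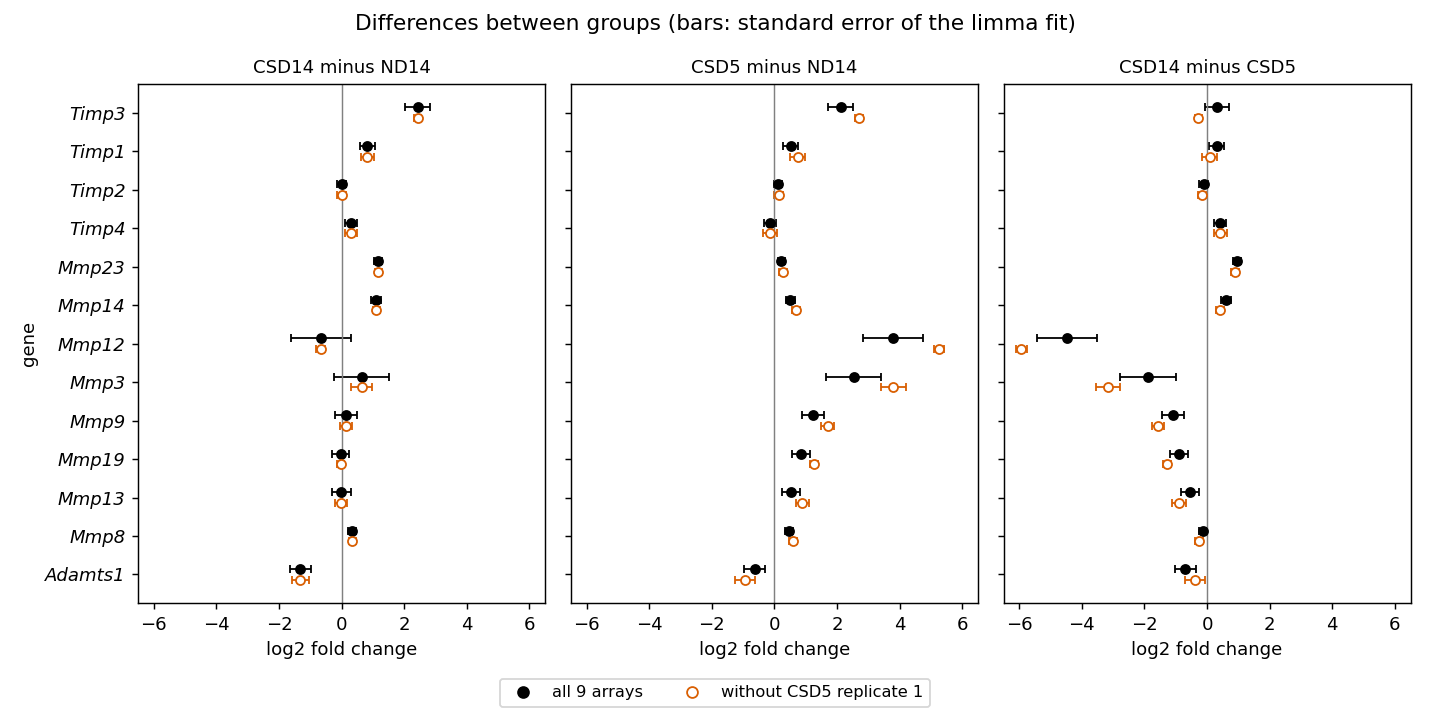
Log2 fold change with its SE from limma for 13 members (rows) in CSD14 minus ND14, CSD5 minus ND14 and CSD14 minus CSD5, with all 9 arrays (filled points) and without CSD5 replicate 1 (open points). Leaving out that array narrowed the error of Mmp12 between CSD14 and ND14 to 0.16, against 0.96 with all arrays, and moved Timp3 across 0 in CSD14 minus CSD5.

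Of the 7 secreted metalloproteinases described at day 5, Mmp12, Mmp3, Mmp13, Mmp8 and Mmp10 are neighbours in the genome. Mmp13, Mmp12, Mmp1b, Mmp3, Mmp1a, Mmp10, Mmp8, Mmp27, Mmp20 and Mmp7 follow each other on mouse chromosome 9 within 427 kb (GRCm38.p6, chr9:7272514-7699585), and in RefSeq no other protein-coding gene lies between them. This cluster holds 10 of the Mmp members, and whether the day 5 enzymes exceeded its share of them was not tested. Mmp8, Mmp10, Mmp13 and Mmp19 were named after their values were seen. Mmp10 passed in no comparison, with all arrays or without CSD5 replicate 1. Mmp8 lay above ND14 in CSD14 as well as in CSD5, so it was not particular to day 5. Mmp2, a gelatinase on chromosome 8, was not counted, although its CSD14 arrays were also below every CSD5 array. Its log2 fold change in CSD14 against CSD5 was -0.71, against -0.58 for Mmp10. Within this cluster the CSD5 arrays were uneven. Mmp12, Mmp3 and Mmp13 stood out on CSD5 replicates 2 and 3, while Mmp1b, Mmp1a, Mmp27 and Mmp20 stayed between 1.59 and 3.19 on all 9 arrays and Mmp7 between 3.05 and 3.62. Mmp20, enamelysin, belongs to enamel formation, and Mmp7, matrilysin, is an epithelial enzyme of the lung and gut.

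**Figure D4:**
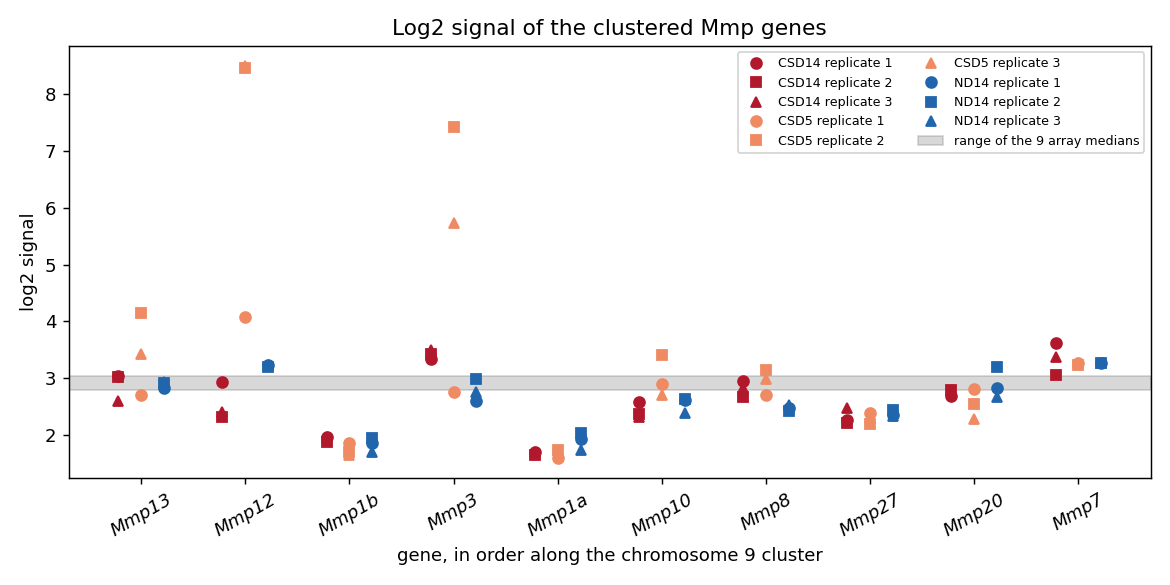
Log2 signal on each array (points, coloured by group, shaped by replicate) of the 10 Mmp genes of the chromosome 9 cluster, in their order along the chromosome, with the range of the 9 array medians in grey (2.79 to 3.04). Of these genes Mmp12 and Mmp3 rose above 5 on CSD5 replicates 2 and 3, and the other 8 stayed under 5 on all 9 arrays.

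The sequences in front of these genes are shown because 5 of the 7 secreted enzymes described at day 5 lie in one cluster. That share was not tested. Mmp1b and Mmp1a lie among them. The cluster can be set against Mmp14 and Timp3, which lie elsewhere and were higher in CSD14 than in ND14. Mmp23, which was also higher in CSD14, is not shown but was searched. Mmp9 and Mmp19 lie on other chromosomes and had no promoter sequence to show. Each run is the 120 bases before a RefSeq start site, 5′ to 3′ on the gene's strand, from GRCm38.p6. Capitals mark matches to 3 motifs, searched on both strands, whose letters cannot overlap one another. TGANTCA is the motif bound by AP-1, the dimers of Fos and Jun proteins. The letters TATAAA are those of the TATA box that positions the start of transcription. The GC box, to which Sp1 and related factors bind, was searched as GGGCGG. Mmp12 has 2 start sites in the table, and both are given.
Mmp12, first start (chr9:7344277-7344396, + strand): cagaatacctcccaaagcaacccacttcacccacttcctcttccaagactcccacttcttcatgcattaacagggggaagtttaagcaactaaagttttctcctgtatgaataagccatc
Mmp12, second start (chr9:7347254-7347373, + strand): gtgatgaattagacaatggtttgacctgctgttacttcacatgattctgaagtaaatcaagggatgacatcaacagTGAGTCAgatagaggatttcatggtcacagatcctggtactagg
Mmp3 (chr9:7445702-7445821, + strand): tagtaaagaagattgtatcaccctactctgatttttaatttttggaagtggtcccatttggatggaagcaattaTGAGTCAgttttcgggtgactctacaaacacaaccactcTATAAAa
Mmp13 (chr9:7272394-7272513, + strand): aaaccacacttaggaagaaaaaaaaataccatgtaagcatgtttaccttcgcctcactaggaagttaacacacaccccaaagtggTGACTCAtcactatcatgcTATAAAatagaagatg
Mmp10 (chr9:7502222-7502341, + strand): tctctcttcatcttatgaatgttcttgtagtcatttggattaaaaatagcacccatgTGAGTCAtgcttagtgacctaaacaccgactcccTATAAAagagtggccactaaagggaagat
Mmp8 (chr9:7558309-7558428, + strand): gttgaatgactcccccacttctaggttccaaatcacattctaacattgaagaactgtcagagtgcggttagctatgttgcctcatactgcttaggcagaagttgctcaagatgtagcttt
Mmp14 (chr14:54431478-54431597, + strand): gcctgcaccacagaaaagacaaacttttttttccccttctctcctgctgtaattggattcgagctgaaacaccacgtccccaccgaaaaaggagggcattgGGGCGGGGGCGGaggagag
Timp3 (chr10:86300292-86300411, + strand): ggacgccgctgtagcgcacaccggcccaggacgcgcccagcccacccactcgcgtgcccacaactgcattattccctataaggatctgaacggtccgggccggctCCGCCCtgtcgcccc

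Promoter sequence was in the table for 30 of the 44 members, among them all 10 genes of the cluster. Mmp9, Mmp19 and Mmp2 had none there and were not searched, so the counts below do not cover them. TGANTCA occurred in the 250 bases upstream of a start in 8 of the 10 cluster genes (all but Mmp8 and Mmp27), in 0 of the other 20 members and in 6.75% of 32851 mouse promoters. A member was counted when any of its starts held the motif, whereas the share of all promoters counts each start by itself. Counting back from -1 at the base before the start, the match began at -46 in Mmp3, -35 in Mmp13, -63 in Mmp10 and -44 at the second start of Mmp12. TATAAA occurred in 7 of the 10 cluster genes, in 2 of the other 20 members (Adamts1 and Mmp21) and in 12.4% of all promoters. GGGCGG occurred in 0 of the 10, in 14 of the other 20, Mmp14, Timp3 and Adamts1 among them, and in 32.7% of all promoters. Mmp23, higher in CSD14 like Mmp14 and Timp3, held none of the 3 motifs, whereas Adamts1 was lower in CSD14. GGGCGG was thus not a shared trait of the members higher in CSD14. These matches describe the letters only. Mmp1a, Mmp1b, Mmp20 and Mmp7 hold TGANTCA as well and did not pass in any comparison, and Mmp8, which was higher in CSD5 than in ND14 without CSD5 replicate 1, holds none of the 3 motifs.

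Several marker lists moved with the day 5 members. The mean log2 signal of 15 macrophage markers was 3.20 to 3.36 on the CSD14 arrays, 3.46, 3.86 and 3.83 on CSD5 replicates 1, 2 and 3, and 3.41 to 3.48 on the ND14 arrays. The arrays with the highest Mmp12 were therefore those with the highest macrophage list. In CSD14 against CSD5 1 of the 15 passed, Csf1r, the receptor for the macrophage growth factor CSF1, which was lower in CSD14 with a log2 fold change of -1.29 (SE 0.22, limma adjusted p = 0.0208), or -1.58 without CSD5 replicate 1 (limma adjusted p = 0.000636). Without that array, 7 of the 15 were lower and 1, Cd68, was higher in CSD14. Of all clusters, 2.41% passed in this comparison with all arrays. Without CSD5 replicate 1 it was 4.11%, and 1.24% were lower. Itgax, the integrin CD11c of alveolar macrophages, had log2 signals of 2.02, 2.29 and 2.19 in CSD14, 2.36, 4.12 and 4.31 in CSD5 and 2.40, 2.43 and 2.47 in ND14. Marco, a scavenger receptor of alveolar macrophages, stayed at 2.51 to 2.77 on all arrays, which is below every array median. Other lists were uneven in the same way: 8 muscle markers averaged 3.46 to 3.67 in CSD14, 3.56, 4.67 and 4.34 on CSD5 replicates 1, 2 and 3 and 3.65 to 3.66 in ND14, and 6 alveolar type 2 markers averaged 5.55 to 5.62 in CSD14, 6.02, 7.32 and 7.35 on those CSD5 arrays and 5.02 to 5.13 in ND14. The muscle list mixes smooth and striated muscle, and its genes did not move together. Acta2, Myh11 and Tagln were on no CSD5 array above the highest ND14 array. Acta1 was 5.80, 9.08 and 8.72 in CSD5 and 5.92, 5.79 and 5.95 in ND14. Fibroblast markers (11) averaged 2.88 to 3.02 in CSD14, 2.94 to 3.19 in CSD5 and 2.81 to 3.09 in ND14. The part of these cells in the values of Mmp12, Mmp3, Mmp9, Mmp13 and Mmp19 was not tested.

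Other lists differed between CSD14 and ND14, as Timp3, Mmp14 and Mmp23 did. Between these groups 5.48% of all clusters rose and 3.66% fell by the adjusted p. Mmp23 did not follow the squamous list below on CSD5 replicates 2 and 3. It was 4.45 and 4.31 there, against 4.06 to 4.15 in ND14 and 5.05 to 5.39 in CSD14. The mean log2 signal of 11 squamous epithelial markers was 5.83 to 6.12 in CSD14, 9.74, 8.06 and 7.73 on CSD5 replicates 1, 2 and 3, and 9.74 to 9.88 in ND14, and 10 of the 11 fell in CSD14 against ND14. The 4 arrays with the lowest Timp3, the ND14 arrays and CSD5 replicate 1, were those with the highest squamous list. The alveolar type 1 list (6) followed Timp3 in the same way, with means of 5.97 to 6.13 in CSD14, 5.76, 6.33 and 6.29 on CSD5 replicates 1, 2 and 3, and 5.49 to 5.68 in ND14, and 3 of its genes were higher and 1 was lower in CSD14 against ND14. Of the 6 alveolar type 2 markers, Sftpb, Abca3 and Etv5 were the 3 that passed in CSD14 against ND14, all higher in CSD14. Neutrophil markers (10) averaged 2.48 to 2.67 in CSD14, 3.57, 2.70 and 2.49 on CSD5 replicates 1, 2 and 3, and 3.50 to 3.56 in ND14, and S100a8, S100a9 and Cxcr2 were the 3 that passed, all lower in CSD14 against ND14. S100a8 and S100a9 are also made by squamous epithelium. Ly6g, Csf3r, Mpo, Elane, Ngp, Camp and Retnlg did not pass. Airway ciliated and club markers (5) averaged 8.38 to 8.52 in CSD14, 7.29 to 7.70 in CSD5 and 7.47 to 7.65 in ND14, with 4 of the 5 higher in CSD14 against ND14. In this list, as in Mmp23, every CSD14 array was above every CSD5 and ND14 array. The 6 endothelial markers averaged 2.60 to 2.77 in CSD14, 2.69 to 2.78 in CSD5 and 2.79 to 3.01 in ND14, and 0 of them passed. The part of these shifts in the values of Timp3, Mmp14, Mmp23 and Adamts1 was not tested.

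**Figure D5:**
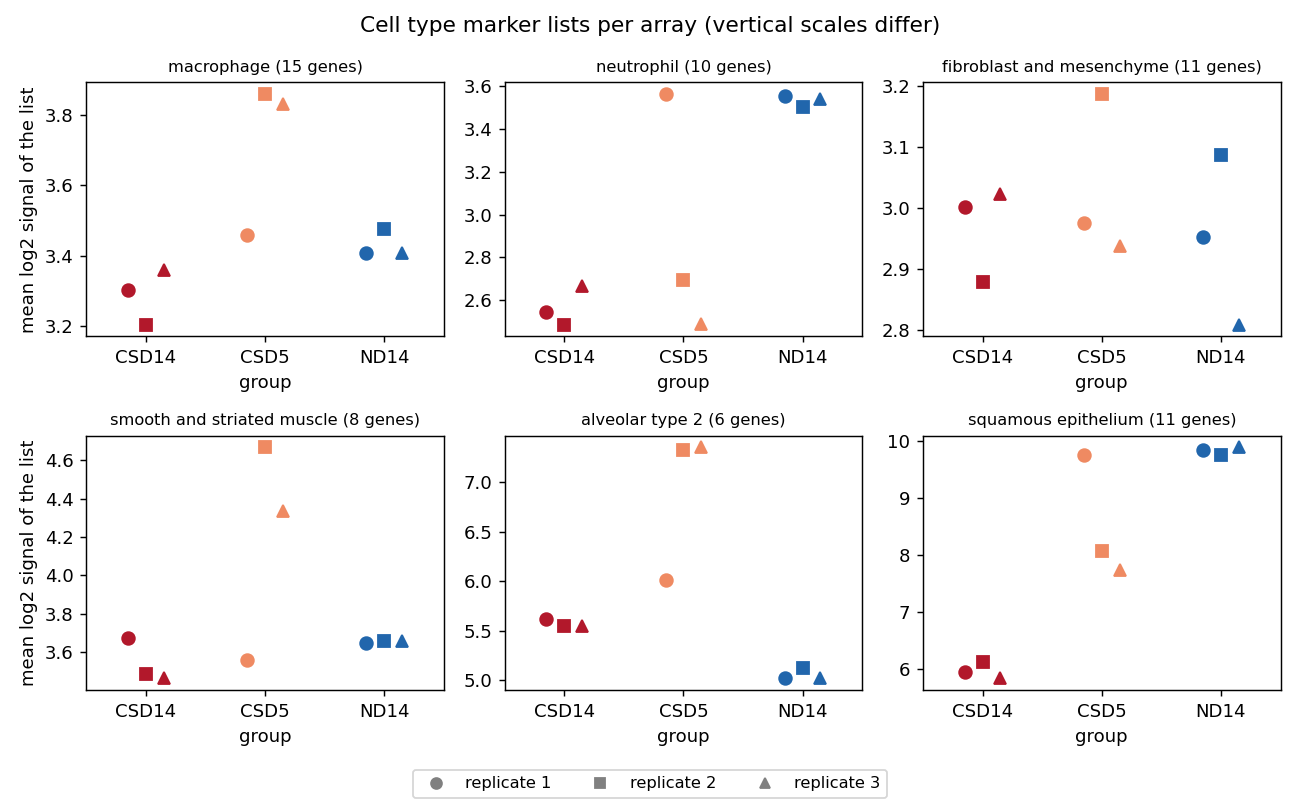
Mean log2 signal of 6 cell type marker lists on each array (points, shaped by replicate), for CSD14, CSD5 and ND14 from left to right, with a separate vertical scale in each panel. The macrophage, muscle and alveolar type 2 lists were highest on CSD5 replicates 2 and 3, and CSD5 replicate 1 lay at or near the ND14 arrays in the neutrophil and squamous lists.

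The remaining members gave no call in any comparison, with all arrays or without CSD5 replicate 1. Mmp28, epilysin, an enzyme of resting epithelium, had log2 signals of 4.15, 4.37 and 4.26 in CSD14, 4.72, 4.53 and 4.52 in CSD5 and 4.62, 4.63 and 4.54 in ND14. Its CSD14 arrays were below all others, by 0.34 against ND14 without passing the test (log2 fold change -0.34 ± 0.11, limma adjusted p = 0.0962). Across the 44 genes, 15 had signals below the median of the array on all 9 arrays, which was so for 40.8% of all clusters, and 16 were above it on all 9, against 42.8%. The low group held 9 Adamts genes as well as Mmp1a, Mmp1b, Mmp16, Mmp21, Mmp25 and Mmp27, and a change in RNA too rare for the array would not be seen in them. Above the 75th percentile of all 9 arrays were 2 members, Mmp14 and Timp2, against 20.6% of all clusters. Mmp7, Mmp11, Adamts8 and Adamts14 have a second transcript cluster, and neither of the clusters of these 4 genes passed in any comparison.

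Genes around the metalloproteinases were read from lists of their activators, partners, substrates and inducers. Of the 104 genes measured in these 8 lists, 11 rose and 6 fell in CSD14 against ND14, where 5.48% and 3.66% of all clusters did. In CSD14 against CSD5, 1 rose and 4 fell, where 2.41% of all clusters passed in either direction. Of 9 measured genes of the plasminogen system, whose plasmin activates pro-MMPs, 1 rose in CSD14 against ND14. This was Plaur, the urokinase receptor, with log2 signals of 6.61, 6.86 and 6.60 in CSD14, 6.03, 6.91 and 6.27 in CSD5 and 5.85, 5.58 and 6.02 in ND14 (0.87 ± 0.22, limma adjusted p = 0.0323). The median of this list was -0.07 against 0 over all clusters, so the list as a whole did not stand apart. Of the 6 proprotein convertases measured, some of which remove the propeptide of MMP14 and MMP23, 0 passed in any comparison.

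Of 13 other inhibitors and partners of metalloproteinases, 3 rose in CSD14 against ND14 (list median 0.18 against 0 over all clusters). Bsg encodes basigin, a surface protein known to induce MMPs in neighbouring cells, and had log2 signals of 10.81, 10.78 and 10.70 in CSD14, 9.71, 10.09 and 10.05 in CSD5 and 9.63, 9.53 and 9.62 in ND14. Its arrays fell in the same order of groups as those of Mmp14, and it rose in CSD14 by 1.17 ± 0.12 against ND14 (limma adjusted p = 0.000827) and by 0.81 ± 0.12 against CSD5 (limma adjusted p = 0.0111), or by 0.69 against CSD5 without CSD5 replicate 1 (limma adjusted p = 0.0088). Lcn2, lipocalin 2, which in humans forms a complex with MMP9, rose by 2.42 ± 0.35 in CSD14 against ND14 (limma adjusted p = 0.00284). Cst3, cystatin C, an inhibitor of cathepsins, rose by 0.58 ± 0.13 (limma adjusted p = 0.0209).

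Of 13 genes of the ADAM family, relatives of the ADAMTS family that are mostly membrane proteins, 4 rose in CSD14 against ND14 (list median 0.01). These were Adamdec1, a soluble ADAM of unusual active site, by 2.39 ± 0.33 (limma adjusted p = 0.00236), Adam9, a sheddase, by 1.43 ± 0.29 (limma adjusted p = 0.0139), Adam28 by 0.91 ± 0.16 (limma adjusted p = 0.00768) and Adam8 by 0.69 ± 0.13 (limma adjusted p = 0.00802). Of 7 ADAMTS-like proteins, which lack the protease domain, 0 passed over the 9 arrays, and without CSD5 replicate 1 Adamtsl4 was higher in CSD14 than in ND14 by 0.45 (limma adjusted p = 0.031). Leaving out that array, 3 ADAM genes and 2 ADAMTS-like genes were higher in CSD5 than in ND14. The difference between the 2 families was not tested.

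Of 16 other proteases of the matrix, 2 fell in CSD14 against ND14. The serine protease gene Htra1 had a log2 fold change of -0.72 ± 0.16 (limma adjusted p = 0.0198), and Ctsd, the lysosomal protease cathepsin D, one of -0.43 ± 0.11 (limma adjusted p = 0.0381). Another 2 fell in CSD14 against CSD5, and both are elastin-cutting cathepsins. Ctss, cathepsin S, had log2 signals of 4.29, 4.44 and 4.44 in CSD14, 5.67, 8.21 and 8.02 in CSD5 and 3.86, 4.21 and 3.67 in ND14. Ctsk, cathepsin K, had log2 signals of 2.70, 2.66 and 2.62 in CSD14, 3.23, 4.04 and 4.37 in CSD5 and 2.93, 2.60 and 2.80 in ND14. In both genes CSD5 replicates 2 and 3 were the highest arrays, as for Mmp12. The log2 fold change in CSD14 against CSD5 was -2.91 ± 0.54 for Ctss (limma adjusted p = 0.0277) and -1.22 ± 0.24 for Ctsk (limma adjusted p = 0.0351), and without CSD5 replicate 1 they were -3.73 (limma adjusted p = 7.87e-06) and -1.55 (limma adjusted p = 0.000559).

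Of 21 matrix substrates measured, 2 rose in CSD14 against ND14, both of them glycoproteins of provisional matrix. Fn1, fibronectin, had log2 signals of 9.69, 9.65 and 9.72 in CSD14, 6.84, 8.79 and 8.55 in CSD5 and 6.58, 6.65 and 6.33 in ND14, and rose by 3.17 ± 0.41 against ND14 (limma adjusted p = 0.00199). Tnc, tenascin C, had log2 signals of 6.74, 6.75 and 6.96 in CSD14, 5.11, 6.84 and 7.18 in CSD5 and 4.70, 4.87 and 4.59 in ND14, and rose by 2.10 ± 0.43 (limma adjusted p = 0.0137). As for Timp3, CSD5 replicate 1 lay between ND14 and the other CSD5 arrays in both genes.

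Of 19 measured inducers of metalloproteinase transcription, 1 rose and 4 fell in CSD14 against ND14 (list median -0.10 against 0 over all clusters). Elf3, an epithelial ETS factor, rose by 2.01 ± 0.28 (limma adjusted p = 0.00247). Il1a, the cytokine interleukin-1 alpha, had log2 signals of 3.87, 3.02 and 3.03 in CSD14, 5.84, 5.89 and 4.44 in CSD5 and 6.02, 5.76 and 5.77 in ND14. Its log2 fold change was -2.54 ± 0.37 in CSD14 against ND14 (limma adjusted p = 0.00301) and -2.08 ± 0.37 in CSD14 against CSD5 (limma adjusted p = 0.0234), or -1.86 without CSD5 replicate 1 (limma adjusted p = 0.0339). The AP-1 subunit genes Jun and Fosl2 were lower in CSD14 than in ND14, with log2 fold changes of -0.86 ± 0.15 (limma adjusted p = 0.0067) for Jun and -0.69 ± 0.12 (limma adjusted p = 0.00589) for Fosl2. Fosb, a further AP-1 subunit gene, had log2 signals of 4.11, 3.74 and 3.84 in CSD14, 5.06, 6.32 and 7.50 in CSD5 and 4.38, 3.86 and 4.50 in ND14, with a log2 fold change of -2.40 ± 0.48 in CSD14 against CSD5 (limma adjusted p = 0.0364), or -3.01 without CSD5 replicate 1 (limma adjusted p = 0.00118). The CSD5 arrays of Fosb were above all day 14 arrays. In CSD5 against ND14, 0 of the 104 genes of these 8 lists passed over the 9 arrays, where 0.0029% of all clusters did. Without CSD5 replicate 1, 19 were higher and 3 lower in CSD5, against 9.67% of all clusters in either direction, and matrix substrates (5 higher) and inducers (3 higher and 3 lower) held the most.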

How the data were processed

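RNA of lung organoids was hybridised to 9 Affymetrix Mouse Gene ST arrays, 3 per group, grouped by the sample titles. The authors deposited 1 log2 signal for each transcript cluster and array, made in Transcriptome Analysis Console, and the algorithm is not given in the sources used here. They were used without further scaling or filtering, so a shift of a whole array would enter every gene, which median centring and quantile normalization were run to gauge. The number of arrays limits the precision. Of 34472 clusters, 23521 carried 1 symbol, 1820 several and 9131 none in the platform annotation, and all 44 members were matched to RefSeq by gene ID.

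Differences were fitted with limma 3.58.1 (lmFit and eBayes, R 4.3.3) in 1 model of 3 groups over all 9 arrays. A member was called when its p, adjusted over all clusters by Benjamini-Hochberg, was under 0.05, and in parallel when the fold change was over 2 and the p before adjustment under 0.05, which are the thresholds of the methods. The fit was tested on simulated data. Alternatives were the 6 arrays compared, a filter at the 40th percentile, limma-trend with robust moderation, quantile normalization, median centring, array weights, the replicate block, a mean over clusters of a gene and leaving out each array.

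Named members are those passing either rule in any comparison, Mmp9, Mmp12 and the Timps, and from each list up to 4 passing genes of smallest adjusted p. Outside that rule, Mmp8, Mmp13 and Mmp19 were named because they passed without CSD5 replicate 1, and Mmp2, Mmp10, Mmp28 and Adamts4 for arrays that did not overlap between groups, all after their values were seen, as were the marker genes named. The members and lists were chosen with earlier results of these data known. Promoters came from RefSeq (GRCm38.p6), and Python 3.11.15 with matplotlib 3.10.9 drew the plots.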

Additional observations from a re-analysis of the deposited data

How the results depend on the processing

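With array weights, 7 members passed the adjusted p of limma in CSD14 against ND14 (4 with equal weights) and 13 in CSD5 against ND14 (0). For CSD14 against CSD5, 9 passed it (2) and 6 passed the looser rule (2). With only the 6 arrays compared they were 7 in CSD14 against ND14, with Mmp3, Mmp12 and Timp1 added, and 0 in CSD14 against CSD5. Leaving out 1 array at a time gave 3 to 6 members past the adjusted p and 4 to 4 past the looser rule in CSD14 against ND14. It gave 0 to 8 and 2 to 5 in CSD5 against ND14, while CSD14 against CSD5 gave 1 to 5 and 1 to 4. The upper end of the ranges that were not a single count came without CSD5 replicate 1. The looser rule gave 2 members in CSD5 against ND14 without CSD5 replicate 2, and 1 in CSD14 against CSD5 without CSD5 replicate 3 or without CSD14 replicate 3. Timp3, Mmp14 and Mmp23 passed in CSD14 against ND14 under all 17 alternatives, with adjusted p up to 0.0259, 0.0164 and 0.00741, and Adamts1 under 10 of the 17. The causes were not tested. With the replicate block, 1 member passed in CSD14 against CSD5, since the adjusted p of Mmp12 was then 0.0634, and 5 passed in CSD14 against ND14, where Timp1 was added at 0.0395. Replicate numbers were not used as pairs, because the deviations of same-numbered arrays correlated at -0.133 to 0.0647 and those of other arrays at -0.113 to 0.104.

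Sign changes occurred for members that did not pass. In CSD14 against CSD5, the log2 fold change was -0.0104 for Timp1 and -0.10 for Timp3 with array weights, and -0.28 to 0.64 for Timp3 on leaving out arrays. In CSD14 against ND14, Mmp13 gave 0.0067 (median centring), 0.0019 (quantile normalization), 0.0041 (array weights) and -0.0883 to 0.137 (leaving out arrays), Mmp19 gave 0.0098 with array weights, Timp2 gave 0.013 (median centring), 0.0085 (array weights) and -0.0867 to 0.0883, and Mmp9 gave -0.00833 to 0.287. In CSD5 against ND14, Timp4 gave -0.32 to 0.10. Of the other single-gene alternatives, 596 kept direction and side of the threshold, 33 moved past it and 18 no longer passed. The 40th percentile filter left out 11 of the 44 members. Signals near the array median limit what 3 arrays can show for most Adamts genes. The same holds for Mmp8, Mmp10, Timp1 and Timp4, and for Mmp12 between CSD14 and ND14.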
